A study of Mus musculus with 54 samples.

Results

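TRBJ2-1 is a joining (J) segment of the mouse T cell receptor beta locus, and its clonotypes were taken as every entry assigned to TRBJ2-1 in 18 repertoires of tumor CD8+ T cells. A clonotype here is a distinct combination of V segment, J segment and CDR3 nucleotide sequence in a library. The rule gave 2779 of 19962 clonotypes. The tumors were B16F10 melanomas grown under the skin of female C57BL/6 mice and taken on day 14. All recipients, controls included, had been lethally irradiated and carried marrow from Fscn1 knock-in mice for 10 weeks. The knock-in places the diphtheria toxin (DT) receptor and Cre at Fscn1, so that blood cells using this promoter can be killed by DT, whereas recipient cells that outlast irradiation carry no knock-in. Anti-PD-L1 (clone 10F.9G2) and anti-CD4 (clone GK1.5) were given at 200 µg on days 5 and 9, and no dose or day of DT is recorded in the labels. There were 5 libraries of anti-PD-L1, 5 of anti-PD-L1 with DT, 4 of both antibodies (the combination), 2 of the combination with DT, and 1 each of anti-CD4 and anti-CD4 with DT. The other 9 tumor samples and 27 lymph node samples of the series were not analysed here. Receptor sequences carry no transcript of CD8 or CD4, so the label of the sorted cells was not checked here.

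The beta chain is assembled in the thymus by joining a V, a D and a J segment. The joined stretch, CDR3, runs from a conserved cysteine of V to a phenylalanine of J and makes much of the contact with peptide on MHC. Exonucleases trim the segment ends, and terminal transferase adds bases between them. In the RefSeq table of GRCm38.p6, Trbj2-1 is the J segment next to Trbd2, and Trbd1 lies before the Trbj1 cluster, so a TRBJ2-1 chain may hold either D segment. A clone that divides in the tumor raises its share of counts but adds no clonotype, so the share of clonotypes and the share of counts were kept apart.

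TRBJ2-1 gave its clonotypes a shared tail, shown here because every later CDR3 ends in part of it. Reading back from the last CDR3 base, 2768 of 2779 clonotypes matched the 26-base form below over all the J bases they held. Capitals mark 4 bases that lie beyond the segment's own end. The first 8 bases of the longer form equal their own reverse complement, as palindromic (P) bases do that arise when a hairpin end is opened off centre, and the segment's own 22 bases were read from that centre.
TRBJ2-1 bases of the CDR3: taactatgctgagcagttcttc
With the palindromic bases: GTTAtaactatgctgagcagttcttc

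Most joins had lost J bases. The J stretch was shorter than 22 bases in 2414 clonotypes (86.9%), complete in 222 (7.99%) and longer in 143 (5.15%), with a mean of 18.7 bases ± 2.65 (SD over clonotypes). Stretches of 19 and 21 bases were the most frequent, with 20.8% and 18.5% of clonotypes. At the protein level 96.9% of clonotypes ended in AEQFF, 69.9% in YAEQFF and 31.5% in the full NYAEQFF. Where the tyrosine before AEQFF was replaced, glycine was the most frequent residue, with 6.68% of the AEQFF clonotypes.

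**Figure D1:**
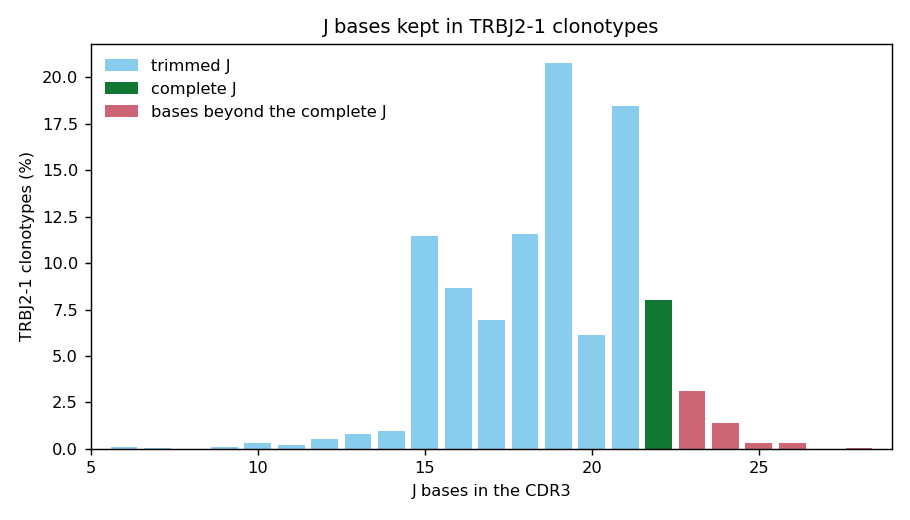
Share of TRBJ2-1 clonotypes (vertical axis, percent of 2779) by the number of J bases in the CDR3 (horizontal axis). Blue bars are trimmed, the green bar complete at 22 bases and red bars longer; trimmed joins made up 86.9%.

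Total counts ran from 18713 to 4467183 per library and clonotypes from 151 to 4098, and the lowest listed count was 9 in these libraries. TRBJ2-1 clonotypes numbered from 18 (combination with DT replicate 3) to 572 (combination replicate 3), so shares in the small libraries carry wide counting error. Counts were not taken as cells, since the sources do not say whether they are reads or molecules. The 95% Wilson intervals given below cover counting error only. Those of count shares take each count as an independent draw, so they may be too narrow. The labels do not say that the samples of a group came from separate mice, so a p-value reflects only how far these samples spread, which may be technical. The 4 treatment comparisons use each group in more than 1 of them and are not independent. Libraries shared few TRBJ2-1 sequences: 29 of 2745 V and nucleotide combinations were in 2 or more libraries. Of 153 library pairs 23 shared any, and no pair shared more than 7. Such numbers for other J segments are not given here, so this is not read as a trait of TRBJ2-1.

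TRBJ2-1 held a steady share of distinct clonotypes, at rank 2 after TRBJ2-7 in 16 libraries and at rank 3 in 2. Its mean share was 14.0% ± 1.68 (SD, n = 18), with a lowest value of 11.3%, a median of 13.9% and a highest value of 19.3%. TRBJ2-7 held 21.1% ± 1.69 and TRBJ2-5, the next below, 11.1% ± 1.21. In anti-PD-L1 replicates 1 to 5 the share was 14.5%, 13.8%, 14.4%, 14.6% and 14.9%. With DT it was 12.4%, 19.3%, 13.2%, 13.9% and 14.5%, and the highest of these came from a library of 187 clonotypes (95% Wilson interval 14.2% to 25.5%). Both groups overlapped. In combination replicates 1 to 4 it was 14.5%, 13.3%, 14.0% and 12.7%, and in combination with DT replicates 3 and 4 it was 11.9% and 11.3%, below each combination library. Anti-CD4 alone gave 15.1% (13.4% to 17.0%) and anti-CD4 with DT 13.8% (12.4% to 15.3%); 1 library each allows no test.

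No treatment comparison called TRBJ2-1, or any J segment, on clonotype numbers. With edgeR's quasi-likelihood test over the 12 J segments, adding DT to anti-PD-L1 gave a log2 difference of -0.06 for TRBJ2-1 (SE 0.09, adjusted p = 0.968). Adding anti-CD4 to anti-PD-L1 gave -0.07 (SE 0.06, edgeR adjusted p = 0.925). Adding DT to the combination gave -0.25 (SE 0.15, edgeR adjusted p = 0.62504), and for both DT groups, combination against anti-PD-L1, it was -0.27 (SE 0.21, edgeR adjusted p = 0.770). In each comparison edgeR called 0% of the 12 segments, and at an unadjusted p under 0.05 it held 0, 0, 1 and 0 of them, which was TRBJ1-6.

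**Figure D2:**
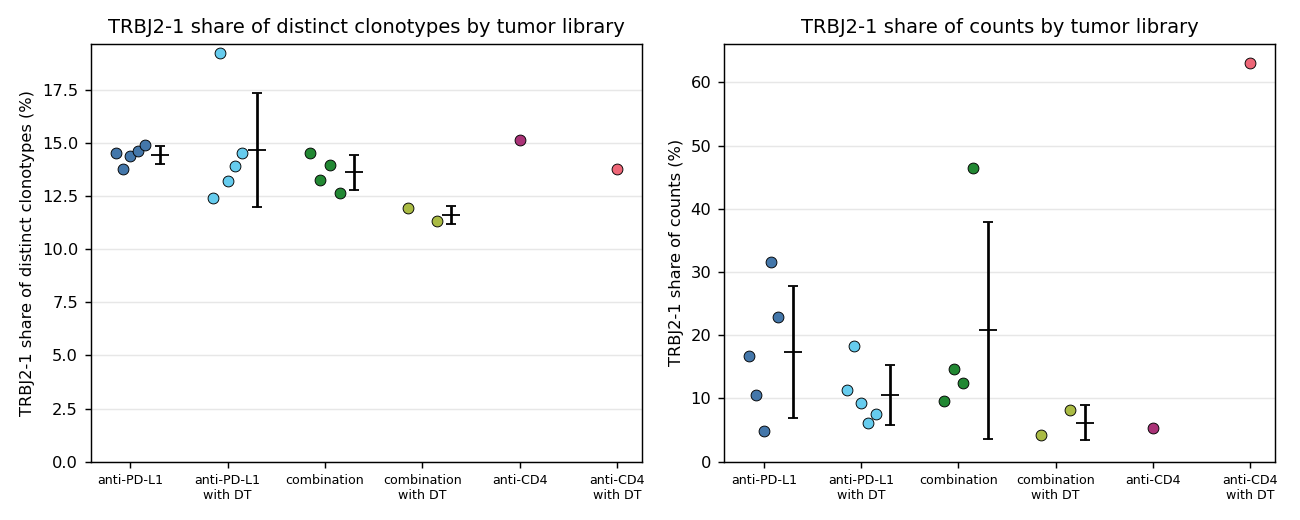
TRBJ2-1 share of distinct clonotypes (left, percent) and of counts (right, percent) in 18 tumor libraries, grouped by treatment on the horizontal axis. Points are libraries and bars the mean and SD of groups with over 1 library; clonotype shares lie between 11.3% and 19.3%, count shares between 4.20% and 63.1%.

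By counts TRBJ2-1 was anything from the leading J segment (4 libraries) to the ninth (1 library). Its count share averaged 16.8% ± 15.7 (SD, n = 18) around a median of 10.9%. The value was 16.7%, 10.6%, 4.88%, 31.6% and 22.9% in anti-PD-L1 replicates 1 to 5. With DT it was 11.3%, 18.3%, 9.26%, 6.20% and 7.51%, within the range of the group without DT. In combination replicates 1 to 4 it was 9.54%, 14.6%, 12.5% and 46.4%, where replicate 4 stood far above the others. Both libraries of the combination with DT lay below all 4, at 4.20% and 8.16%. Anti-CD4 gave 5.39% (5.33% to 5.45%) and anti-CD4 with DT 63.1% (63.0% to 63.1%).

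None of these differences passed. With DT under anti-PD-L1 the mean count share was 10.5% ± 4.77 against 17.3% ± 10.4 (exact permutation test, two-sided, p = 0.246, adjusted p = 0.738 over 3 measures; the smallest p this design allows is 0.00794). The combination had 20.8% ± 17.2 against 17.3% ± 10.4 for anti-PD-L1 (exact permutation p = 0.738, adjusted p = 0.738), and without combination replicate 4 the difference turned from 3.43 to -5.11 percentage points. With DT under the combination the mean was 6.18% ± 2.80 (exact permutation p = 0.333, adjusted p = 0.6), where 2 against 4 libraries cannot reach below 0.0667. Both DT groups differed by -4.34 percentage points, combination minus anti-PD-L1 (exact permutation p = 0.333, adjusted p = 0.5). The effect of DT did not pass a test of its difference between both antibody settings for any of 4 measures (permutation within setting, lowest adjusted p = 0.673).

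A few large clones made up much of the TRBJ2-1 counts. The most abundant TRBJ2-1 clonotype held from 13.3% to 94.8% of the TRBJ2-1 counts of its library (median 39.3%), and over 50% in 8 libraries. It was the leading clone of the whole library in 5 libraries and was at rank 10 or better in 15. Without it the count share of TRBJ2-1 ran from 3.13% to 14.5%. Over the 18 libraries count share minus clonotype share averaged 2.84 percentage points, and 6 libraries were above 0 (permutation test of paired differences, adjusted p = 0.515 over 6 relations).

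The 5 clones that led their library are shown with the V part in lower case, the D and added bases in capitals and the J part in lower case. The J part is the tail given above, cut back to between 15 and 21 bases.
Anti-CD4 with DT replicate 2, TRBV19, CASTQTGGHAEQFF: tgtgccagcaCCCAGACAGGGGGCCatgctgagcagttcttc
Combination replicate 4, TRBV16, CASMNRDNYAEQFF: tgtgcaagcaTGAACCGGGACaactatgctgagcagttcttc
Anti-PD-L1 replicate 4, TRBV13-1, 16 amino acids: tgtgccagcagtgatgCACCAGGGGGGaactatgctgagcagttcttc
Anti-PD-L1 replicate 5, TRBV14, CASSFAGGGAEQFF: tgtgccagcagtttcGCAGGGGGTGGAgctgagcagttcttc
Combination replicate 2, TRBV14, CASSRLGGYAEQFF: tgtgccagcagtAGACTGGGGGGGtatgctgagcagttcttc

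The TRBV19 clone took 59.8% of its library's counts (59.7% to 59.8%) and 94.8% of the TRBJ2-1 counts there. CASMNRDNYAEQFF took 31.9% (31.8% to 32.0%), the TRBV13-1 clone 20.5% (20.2% to 20.7%), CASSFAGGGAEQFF 14.7% (14.5% to 14.8%) and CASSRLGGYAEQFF 10.9%. Of these, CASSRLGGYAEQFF was called with TRBD2 and the other 4 with TRBD1. Each held between 1 and 5 inserted bases. All 5 differed in V segment, CDR3 or both, and no other library listed any of them with the same bases at over 0.0133% of counts.

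In the remaining 13 libraries the leading TRBJ2-1 clone held between 0.817% and 7.50% of counts. Under anti-PD-L1 these were TRBV4 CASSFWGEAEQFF (6.09%, replicate 1), TRBV14 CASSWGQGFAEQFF (2.72%, replicate 2) and TRBV20 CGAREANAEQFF (0.817%, replicate 3). With DT, replicates 1 to 5 had TRBV19 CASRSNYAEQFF (3.37%), TRBV13-1 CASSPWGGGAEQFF (7.49%), TRBV31 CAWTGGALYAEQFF (1.23%), a TRBV13-1 clone of 15 amino acids (2.34%) and TRBV13-1 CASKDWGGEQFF (1.49%). The last of these kept 12 J bases and so lacked the alanine of AEQFF. Combination replicates 1 and 3 had TRBV14 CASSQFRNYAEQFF (5.07%) and TRBV13-3 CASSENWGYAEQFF (7.50%). With DT, replicates 3 and 4 had TRBV14 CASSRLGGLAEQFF (1.07%) and a TRBV12-1 clone of 15 amino acids (4.53%), and anti-CD4 had TRBV20 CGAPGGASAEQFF (2.01%). Among all 18 leading clones TRBV14 occurred 5 times and TRBV13-1 4 times. Their CDR3s were 14 amino acids long in 10 and held a pair of neighbouring glycines in 11. Of all TRBJ2-1 clonotypes, TRBV14 made up 6.73%, TRBV13-1 6.12% and CDR3s of 14 amino acids 30.7%. A glycine pair away from both CDR3 ends stood in 34.6% ± 5.40 (mean and SD over libraries). This is narrower than the measure used for the leading clones, where a pair anywhere was counted, as in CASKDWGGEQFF.

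**Figure D3:**
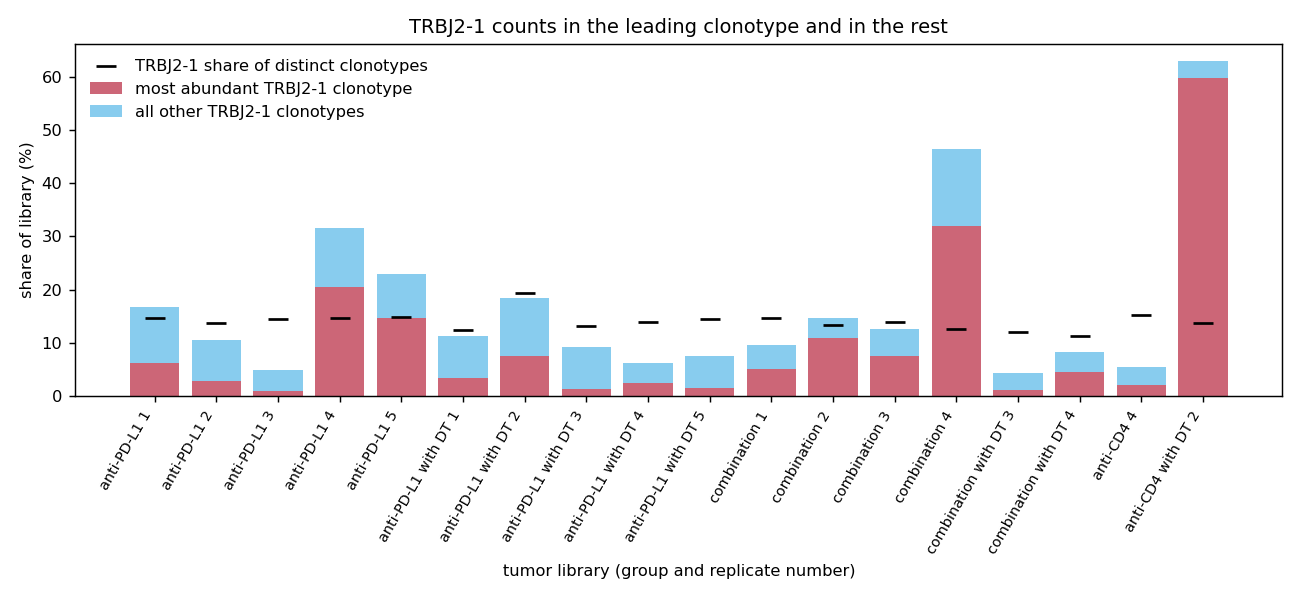
Share of each tumor library (vertical axis, percent of counts) held by its most abundant TRBJ2-1 clonotype (red) and by all other TRBJ2-1 clonotypes (blue); black marks give the TRBJ2-1 share of distinct clonotypes. The highest bars, 63.1% and 46.4%, contain single clones of 59.8% and 31.9%.

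TRBJ2-1 took about the same share of abundant clonotypes as of all. Of 527 clonotypes with at least 0.5% of their library's counts (called expanded here), 66 used TRBJ2-1 (12.5%). The mean over libraries was 13.0% ± 6.66 of expanded against 14.0% ± 1.68 of all clonotypes (n = 18, higher in 7 libraries, permutation test of paired differences, adjusted p = 0.515). TRBV13-1 gave 12 of the 66, in 6 libraries, followed by TRBV19 and TRBV14 with 7 each and TRBV12-1 with 5. Of all TRBJ2-1 clonotypes these V segments made up 6.12%, 5.51%, 6.73% and 12.0%, in that order. The share of TRBJ2-1 among expanded clonotypes was 15.7% ± 7.99 with anti-PD-L1 (n = 5), 15.4% ± 6.95 with anti-PD-L1 and DT (n = 5), 10.4% ± 4.62 with the combination (n = 4) and 8.69% ± 0.972 with the combination and DT (n = 2). The exact permutation tests gave adjusted p-values of 0.944 for adding DT and 0.738 for adding anti-CD4 to anti-PD-L1, 0.733 for adding DT to the combination and 0.5 between both DT groups.

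TRBV12-1 (older name Vβ5.2) was the most frequent V partner of TRBJ2-1 and the only V segment called in the pairing test. It made up 13.9% ± 5.39 of TRBJ2-1 clonotypes against 8.88% ± 1.42 of the other clonotypes of the same libraries (n = 18). Among TRBJ2-1 clonotypes the lowest library had 5.36%, the median was 12.8% and the highest 27.8%. Among the others these values were 6.38%, 9.03% and 11.6%, and TRBJ2-1 was higher in 15 of 18 libraries. The log2 difference was 0.44 (SE 0.11; edgeR's quasi-likelihood test with library as block, adjusted p = 0.00236). The test called 1 of 22 V segments (4.55%), and 5 had an unadjusted p under 0.05. By J segment, TRBJ2-1 had the highest mean share of TRBV12-1, followed by TRBJ2-7 with 10.3% ± 2.69 and TRBJ1-2 with 10.0% ± 5.48.

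The TRBV12-1 call depended on the counting. TRBV12-1 and TRBV12-2 (Vβ5.1) are close copies, and the longest V stretch found in at least 10 clonotypes was the same for both, tgtgccagctctctc. TRBV12-2 lay the other way, with 5.51% ± 2.32 of TRBJ2-1 clonotypes against 7.03% ± 1.97 of others (log2 -0.37, edgeR adjusted p = 0.0504). It passed with DESeq2, against the other TRBJ2 segments, over amino acid clonotypes and in 4 of 18 edgeR fits that left out a library. Counted as 1 segment, both together gave 19.4% ± 5.04 against 15.9% ± 2.48 and a log2 difference of 0.13 (edgeR adjusted p = 0.390), with 0 of the segments called and 3 at an unadjusted p under 0.05. With DESeq2 the value for TRBV12-1 was 0.31 (adjusted p = 0.0589), and over clonotypes above the same share of counts in every library it was 0.54 (edgeR adjusted p = 0.439).

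TRBV14, TRBV16 and TRBV1 did not pass, but each did under some alternatives. TRBV14 (Vβ13) made up 6.63% ± 2.80 of TRBJ2-1 clonotypes against 5.21% ± 1.13 of others, higher in 12 libraries (log2 0.39, edgeR adjusted p = 0.0504). It passed over amino acid clonotypes (log2 0.39, edgeR adjusted p = 0.0456) and in 10 of 18 fits that left out a library, and not with DESeq2 (log2 0.20, adjusted p = 0.391). TRBV16 (Vβ11) made up 6.98% ± 3.35 against 9.05% ± 1.34, higher in 4 libraries (log2 -0.31, edgeR adjusted p = 0.0731), and against the other TRBJ2 segments alone it passed (log2 -0.44, edgeR adjusted p = 0.00746), as it did with DESeq2 (log2 -0.50, adjusted p = 0.0307) and in 2 of 18 fits that left out a library. TRBV1, named after its values were seen, made up 4.42% ± 2.97 against 5.85% ± 1.49 (log2 -0.38, edgeR adjusted p = 0.0683). It passed with DESeq2, over amino acid clonotypes and in 3 of 18 fits that left out a library. TRBV13-2, TRBV13-1 and TRBV19 had log2 differences of -0.23, -0.12 and -0.24 (edgeR adjusted p = 0.227, 0.594 and 0.227). In all, 24 V segments were found with TRBJ2-1.

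**Figure D4:**
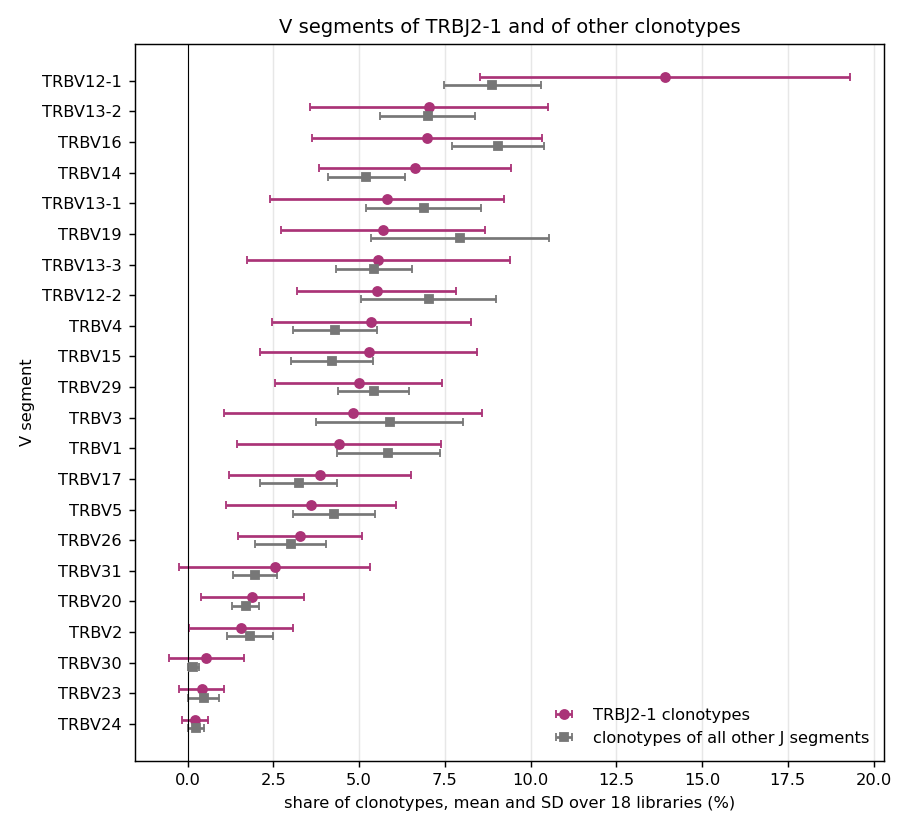
Share of clonotypes (horizontal axis, percent) that use each of 22 tested V segments (vertical axis) among TRBJ2-1 clonotypes (red circles) and among all other clonotypes (grey squares). Symbols and bars are the mean and SD over 18 libraries; TRBV12-1 has 13.9% against 8.88%.

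By counts the order of V partners followed the large clones. TRBV14 averaged 16.5% of the TRBJ2-1 counts of a library, TRBV19 10.4% and TRBV12-1 9.66%, with TRBV13-1 between TRBV14 and TRBV19. The highest values were 97.9% for TRBV19 in anti-CD4 with DT replicate 2, 84.5% for TRBV13-1 in anti-PD-L1 replicate 4 and 75.6% for TRBV14 in combination replicate 2.

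No pairing of a V segment with TRBJ2-1 was called between treatments. With edgeR's quasi-likelihood test over all V-J pairs, 0% were called in each comparison, of 201, 219, 193 and 118 pairs tested, and DESeq2 likewise called 0 in each. At an unadjusted p under 0.05 edgeR held 9, 11, 8 and 3 pairs, of which 3, 2, 1 and 1 used TRBJ2-1, and DESeq2 held 6, 5, 3 and 1 pairs in all. The median log2 difference with DT under anti-PD-L1 was -0.13 over 19 TRBJ2-1 pairs and -0.04 over all pairs. With DT under the combination it was -0.46 and -0.08.

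The pairs with the smallest p are given as values. TRBV3 with TRBJ2-1 made up 0.984% ± 0.218 of clonotypes with anti-PD-L1 and 0.207% ± 0.297 with added DT (log2 -1.42, edgeR adjusted p = 0.490). Its 5 libraries without DT lay between 0.639% and 1.18%. With DT 2 of 5 held any, the highest at 0.642%, so both groups overlapped. Libraries with DT held as few as 187 clonotypes, where such a share amounts to few clonotypes. TRBV31 with TRBJ2-1 made up 0.217% ± 0.155, 0.414% ± 0.479 with DT and 0.343% ± 0.283 with the combination, so all 3 groups overlapped (log2 1.74 and 1.41 against anti-PD-L1, edgeR adjusted p = 0.566 and 0.715). TRBV19 with TRBJ2-1 made up 0.863% ± 0.275 with anti-PD-L1 and 0.518% ± 0.211 with the combination (log2 -0.78, edgeR adjusted p = 0.715). TRBV13-3 with TRBJ2-1 had 0 of 602 clonotypes pooled over the 2 libraries of the combination with DT. With clonotypes taken as independent draws this allows a share of up to 0.498%, a bound that leaves out spread between libraries. The combination had 50 of 6684 (edgeR adjusted p = 0.721), and its libraries ran from 0.415% to 1.45%. TRBV29 with TRBJ2-1 had 1 of 602 and 52 of 6684 (edgeR adjusted p = 0.884). Against anti-PD-L1 with DT, which held 19 and 15 of 2263, the edgeR adjusted p was 0.491 for TRBV13-3 and 0.936 for TRBV29.

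TRBJ2-1 used both D segments. A D segment was called in 2313 of its clonotypes, TRBD2 in 1331 and TRBD1 in 982, and 16.8% of all had none. TRBD2 therefore made up 57.5% of called D segments, against 58.2% with the other TRBJ2 segments. With TRBJ1 segments, which lie before Trbd2 and cannot join it by deletion, 8.78% of called D segments were still named TRBD2. Those stretches averaged 6.50 bases, against 9.18 for TRBD2 with TRBJ2-1, so the share is no error rate for the TRBJ2-1 calls. Over libraries the TRBD2 share was 56.9% ± 7.66 with TRBJ2-1 and 58.4% ± 4.38 with other TRBJ2 segments (n = 18, higher in 5, permutation test of paired differences, adjusted p = 0.515). Combination with DT replicate 4 was highest at 79.5% and anti-PD-L1 with DT replicate 4 lowest at 40.9%. The most frequent D stretches were ctgggggg (81 clonotypes) and ctggggg (65), both called TRBD2. The stretch ggggg (39 clonotypes) was called TRBD1, although it lies within ggggggg (37), called TRBD2. No stretch carried both names, so short calls of either D segment are uncertain. TRBD1 stretches with TRBJ2-1 averaged 7.48 bases, and how many calls this affects was not tested. Runs of g read as glycine. Away from both ends of the CDR3, 34.6% ± 5.40 of TRBJ2-1 clonotypes held a pair of neighbouring glycines. The share among others was 24.6% ± 1.91, and TRBJ2-1 was higher in 17 libraries. These others include TRBJ1 clonotypes, where TRBD2 was rarely called, and no comparison with the other TRBJ2 segments alone was made. The motif was chosen after its values were seen and carries no test.

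TRBJ2-1 clonotypes had longer CDR3s than all other J segments combined in each of 18 libraries, although it was mid-ranked among single J segments. The mean was 14.32 amino acids ± 0.161 against 13.95 ± 0.0846, a difference of 0.369 ± 0.173 (n = 18, permutation test of paired differences with 100000 draws, p = 2.0e-05, adjusted p = 1.2e-04). Library means of TRBJ2-1 ran from 14.0 to 14.5 amino acids, with a median of 14.3. With clonotypes weighted by counts the difference was 0.179 and did not pass (adjusted p = 0.122). Over clonotypes the lengths of 14 and 15 amino acids held 30.7% and 28.7%. Pooled over libraries, the TRBJ2-1 mean was 14.29, and 5 of the other 11 J segments were longer: TRBJ1-3 (14.40), TRBJ1-6 (14.46), TRBJ1-4 (14.51), TRBJ2-3 (14.73) and TRBJ2-2 (14.77). The shortest were TRBJ2-7 (13.34) and TRBJ1-1 (13.35), which hold 4142 and 2006 of the clonotypes compared with it.

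Against all other J segments combined, TRBJ2-1 CDR3s held more D and J bases. Among clonotypes with a called D, the TRBJ2-1 CDR3 held 18.7 J bases ± 0.461 against 18.2 ± 0.162 in others, and 8.49 D bases ± 0.290 against 8.01 ± 0.210, higher in 17 and 16 of 18 libraries. V bases were 13.3 ± 0.164 and 13.3 ± 0.146. These parts are given without tests of their own. Inserted bases averaged 3.25 ± 0.345 against 3.19 ± 0.124 (higher in 11 libraries, permutation test of paired differences, adjusted p = 0.515). Both D and J bases depend on which other J segments form the comparison. TRBJ2-7 held 15.6 J bases ± 0.407 and 8.62 D bases ± 0.321. Pooled over libraries, called D stretches averaged 8.46 bases with TRBJ2-1, 8.45 with the other TRBJ2 segments and 7.32 with TRBJ1 segments. More D bases were thus found against TRBJ1 and not against the other TRBJ2 segments combined.

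**Figure D5:**
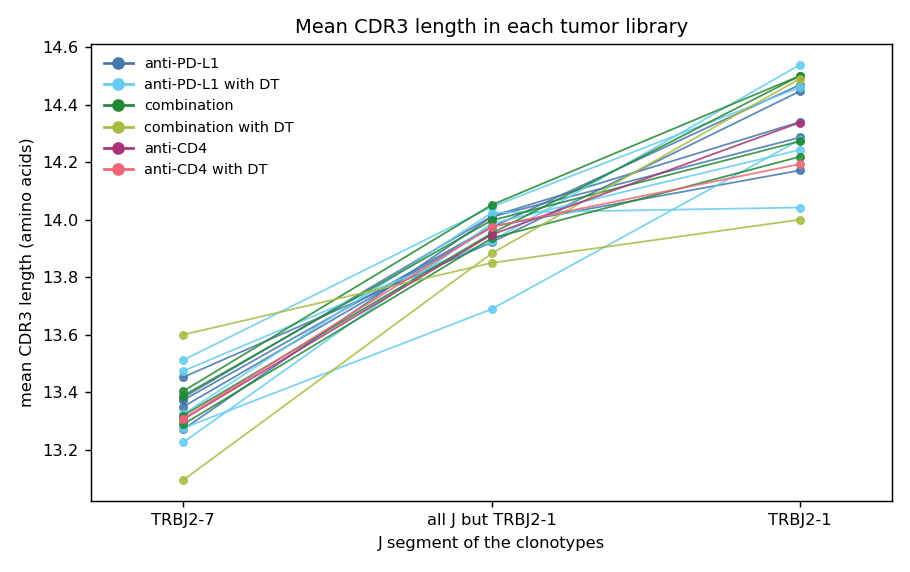
Mean CDR3 length (vertical axis, amino acids; the axis does not start at 0) of TRBJ2-7 clonotypes, of all clonotypes but TRBJ2-1 and of TRBJ2-1 clonotypes; each line is 1 tumor library, coloured by treatment. TRBJ2-1 lies above all other J segments together in each of 18 libraries.

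CDR3 lengths of TRBJ2-1 overlapped between treatments. TRBJ2-1 clonotypes averaged 14.34 amino acids ± 0.122 with anti-PD-L1, 14.31 ± 0.195 with DT added, 14.37 ± 0.148 with the combination and 14.25 ± 0.347 with the combination and DT. No comparison passed (exact permutation tests, adjusted p between 0.6 and 0.944). By V partner, among those with at least 100 TRBJ2-1 clonotypes, the mean ran from 13.8 with TRBV29 to 14.7 with TRBV5 and TRBV13-2.

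Few TRBJ2-1 clonotypes recurred between libraries. Taking V segment and CDR3 amino acids together, 82 of 2665 (3.08%) were in at least 2 libraries, against 533 of 16337 (3.26%) for all other J segments. Of the 82, 59 were encoded by more than 1 nucleotide sequence. At a common depth of 18713 counts, the share of clonotypes also seen in another library was 6.02% ± 2.91 with TRBJ2-1 and 8.00% ± 2.93 with others. It was lower in 13 of 18 libraries and did not pass (difference -1.98 percentage points, permutation test of paired differences, p = 0.0400, adjusted p = 0.120). Without anti-PD-L1 replicate 5 it passed (adjusted p = 0.0433). Libraries share recurrent clonotypes, so these values are not fully independent. At full depth, 1 clonotype of the other J segments was in all 18 libraries, while the widest TRBJ2-1 clonotype was in 5. How far this enters the difference was not tested.

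The recurrent clonotypes held fewer inserted bases. Their 184 entries averaged 13.86 amino acids and 2.19 inserted bases, against 14.32 and 3.29 for the other 2595. Of all TRBJ2-1 clonotypes, TRBV12-1, TRBV12-2 and TRBV14 made up 12.0%, 6.23% and 6.73%. They were the most frequent V segments of the 82 recurrent clonotypes, with 11, 8 and 7. The widest, a TRBV12-1 clonotype of 15 amino acids, was found in 5 libraries at between 0.00112% and 0.129% of counts, each time with other bases; its sequences are shown because they reach 1 protein by 5 joins, with capitals as before.
Anti-PD-L1 with DT replicate 5: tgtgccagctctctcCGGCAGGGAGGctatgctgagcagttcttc
Combination replicate 2: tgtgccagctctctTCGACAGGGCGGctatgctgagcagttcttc
Combination replicate 3: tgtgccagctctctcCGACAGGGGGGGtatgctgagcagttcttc
Combination replicate 4: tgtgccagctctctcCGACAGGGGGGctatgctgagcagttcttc
Anti-PD-L1 replicate 5: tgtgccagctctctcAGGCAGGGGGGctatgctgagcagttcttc

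A further 3 clonotypes were in 4 libraries each. The leading TRBV13-1 clone of anti-PD-L1 with DT replicate 4 had 3 nucleotide sequences over its libraries and reached 2.34% there, 0.579% in anti-PD-L1 replicate 2 and 0.253% in anti-PD-L1 replicate 4. The higher 2 of these libraries held the same bases, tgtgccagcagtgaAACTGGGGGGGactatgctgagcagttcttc. TRBV12-2 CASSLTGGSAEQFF had 1 nucleotide sequence and ranged from 0.00367% to 0.328%. TRBV19 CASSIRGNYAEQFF had 3 and stayed at or below 0.0143%. Next, in 3 libraries, came TRBV19 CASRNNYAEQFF, at up to 0.467%, and TRBV5 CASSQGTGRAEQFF, at up to 0.379%.

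Of the 18 leading TRBJ2-1 clones, 6 were also listed in another library with identical bases, at shares from 3.1e-04% to 0.579%. The same number for leading clones of other J segments is not given here. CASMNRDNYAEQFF, for example, was listed with 25 counts (0.0133%) in replicate 1 of anti-PD-L1 with DT. Passage of sequences between libraries was not tested. Leaving out the 9 TRBJ2-1 entries, and 106 entries in all, that copied a clonotype expanded in another library gave recurrent shares of 5.33% for TRBJ2-1 and 6.90% for others (permutation test of paired differences, adjusted p = 0.155).

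Some abundant TRBJ2-1 clones of different libraries held nearly the same CDR3 on different V segments. Among the 66 expanded TRBJ2-1 clonotypes, 454 pairs had unequal V segments and equal length, and 7 of them (1.54%) differed in at most 1 amino acid. Among 103 expanded TRBJ2-7 clonotypes this held for 1 of 878 pairs (0.114%). Both are descriptions, since pairs share clonotypes and are not independent. The segments also differ in how much of the CDR3 is J: clonotypes with a called D held a mean of 18.7 J bases with TRBJ2-1 and 15.6 with TRBJ2-7, and the part of this shared tail in the difference was not tested. The 7 pairs came from 6 clonotypes in 4 libraries, no pair within a library, and 1 of them sets the close copies TRBV12-1 and TRBV12-2 against each other. The 4 below share a threonine and a glycine pair before YAEQFF and differ in the residue before that threonine, which is glycine, leucine, isoleucine and lysine in turn; capitals mark the D and added bases.
TRBV12-1, 2.01% of anti-PD-L1 with DT replicate 2: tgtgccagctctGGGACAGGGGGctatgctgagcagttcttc
TRBV12-2, 1.84% of anti-PD-L1 with DT replicate 1: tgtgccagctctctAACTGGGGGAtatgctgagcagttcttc
TRBV16, 1.08% of combination replicate 2: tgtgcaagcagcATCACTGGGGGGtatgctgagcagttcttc
TRBV13-1, 0.670% of anti-PD-L1 replicate 4: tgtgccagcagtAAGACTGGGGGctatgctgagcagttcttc

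The remaining pair was TRBV13-1 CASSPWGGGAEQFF (7.49% of anti-PD-L1 with DT replicate 2) and TRBV12-1 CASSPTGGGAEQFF (0.652% of anti-PD-L1 replicate 4). With up to 2 differences allowed, 35 of 454 pairs qualified (7.71%), against 23 of 878 with TRBJ2-7 (2.62%). These included the largest clone, TRBV19 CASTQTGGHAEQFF, and TRBV13-1 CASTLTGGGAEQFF (5.19% of anti-PD-L1 replicate 4). Over all abundances, and chosen after its values were seen, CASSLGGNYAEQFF occurred with 5 V segments in 6 libraries at up to 0.180%.

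Across the 18 libraries, the J segments whose clonotype share had the highest Pearson r with that of TRBJ2-1 were TRBJ1-2 (r = 0.49, Spearman rho = 0.36) and TRBJ2-3 (r = 0.29). The rank correlation of TRBJ2-3 was of opposite sign (rho = -0.26), and by rank TRBJ2-7 followed TRBJ1-2 (rho = 0.18). All J shares of a library sum to the same total and rest on its number of clonotypes, so these are descriptions over 18 points.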

How the data were processed

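Tumor libraries were read from clonotype tables. Per the file headers the deposited count is the abundance of a clonotype, a whole number that was not normalized; whether it counts reads or molecules is not stated. The authors' fraction column is that number divided by the library's sum. Per the labels' protocols, RNA was copied by reverse transcription with template switching. The submitters' processing notes name cutadapt 3.2. Aligner, clonotype caller, segment reference and build: not given in the sources used here, so no coordinates are printed. Segment limits within a CDR3 come from the deposited positions, and inserted bases are those between V, D and J.

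The members, lists and tests were chosen with earlier results of these data known. Segments, V-J pairs and V partners with at least 10 clonotypes were tested on clonotype numbers with edgeR 4.0.16 (R 4.3.3), with DESeq2 1.42.0 as an alternative. Library values were compared by exact permutation tests between groups, and relations within libraries by 100000 sign flips, with Benjamini-Hochberg adjustment and a threshold of 0.05, run with scipy 1.17.1, pandas 2.3.3 and numpy 2.4.6 under Python 3.11.15. Recurrence used the mean of 100 random draws to 18713 counts. The alternative with the same share minimum kept clonotypes of at least 0.0481% of counts. The edgeR tests were tried on simulated counts without spread between libraries, and the permutation tests on normally distributed values. This does not show their error rates on data spread as these are. Named items were the 6 commonest V partners and those called, the 2 TRBJ2-1 pairs of smallest p in each comparison, the leading clone of each library, the 6 most widely found clonotypes, the 2 J segments of highest Pearson r, and similar abundant CDR3s. V and J names are as in the files, and older names and neighbours come from the RefSeq table of GRCm38.p6. A table of oligonucleotides was not used.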

Additional observations from a re-analysis of the deposited data

Results flagged for a closer look

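The TRBJ2-1 count share of combination replicate 4 was 46.4%, far from the other 3 libraries of its group, whose values were 9.54%, 14.6% and 12.5%. Its distance to the nearest of them was 0.863 of the group's whole range. The library's leading clone, TRBV16 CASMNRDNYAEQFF, held 31.9% of counts, and 14.5% of counts remained with TRBJ2-1 without it. Among 18 combinations of measure and group examined in this way, this was the only 1 that stood out. Chance gives about 1 in 20 for each combination, so 1 among 18 is about what chance alone gives. That rate takes the values as normally distributed, which was not tested for these shares. No effect of DT differed between the antibody settings past the threshold.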

How the results depend on the processing

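The longer CDR3 of TRBJ2-1 kept its direction and its call in 18 fits that left out a library each (0.354 to 0.389 amino acids), and its call was lost when clonotypes were weighted by counts (0.179). The number of V segments called with TRBJ2-1 was 3 with DESeq2, none of them TRBV12-1, 3 against other TRBJ2 segments, 4 over amino acid clonotypes, 0 over a common share minimum, 0 with TRBV12-1 and TRBV12-2 as 1 segment (chosen after seeing the data), and 1 to 4 without a library; TRBV12-1 was called in each of those 18 fits. TRBV19 turned to 0.023 against other TRBJ2 segments. Similar pairs numbered 35 of 454 at up to 2 differences. At 0.1% of counts and up to 1 difference they were 26 of 3965 (0.656%), a lower share than the 7 of 454 (1.54%) at 0.5%. With TRBJ2-7 these were 9 of 8480 (0.106%) and 1 of 878 (0.114%). The recurrent share ranged from -2.30 to -1.50 points without a library. The inserted bases turned to -0.0192 against TRBJ2-7 and -0.0718 over the share minimum, count minus clonotype share to -1.97 without the leading clone of each library, and the TRBD2 share to 0.62 with uncalled D segments included; none of these passed.

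No treatment comparison of TRBJ2-1 passed under any alternative run, and directions were not stable. For DT under anti-PD-L1 the clonotype share turned to 0.0044 (DESeq2, log2), 0.0034 (share minimum, log2) and 0.219 points (exact permutation of the percents), and ran from -0.12 to 0.0059 without a library. The count share turned to 1.16 without leading clones. The share of expanded clonotypes turned to 1.74 at 0.1% and 3.96 at 1% and ran from -2.77 to 2.28, and length turned to 0.146 over the share minimum and ran from -0.0867 to 0.0374. For the combination against anti-PD-L1, length turned to -0.188 weighted by counts and -0.251 over the share minimum and ran from -0.0122 to 0.0819, the expanded share turned to 1.81 at 1%, and the count share ran from -5.11 to 7.17. For DT under the combination length ran from -0.373 to 0.117 and the expanded share from -3.33 to 0.377, and between both DT groups length ran from -0.312 to 0.178. The causes were not tested.

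Same-numbered libraries did not all deviate together (correlations of J shares from -0.346 to 0.670, the latter among only 2 pairs, for DT under the combination), so the numbers were not taken as a pairing. With the replicate number as a block, TRBJ2-1 clonotype shares were -0.03, -0.06, -0.18 and -0.23 (log2), 0 V-J pairs were called in each comparison, length for the combination turned to -0.0122, and no call changed. Of 620 alternative values 553 were labelled as unchanged. For effects this meant the same direction and side of the threshold, or direction alone where no adjusted p was given. For numbers of called items it meant an equal or similar number, and called V-J pairs stayed at 0 throughout. Depth limits the small libraries most: 18 TRBJ2-1 clonotypes in the smallest allow only large differences in V or D use to show.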
